A study of Mus musculus with 6 samples.

Results

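The genes described here are 34 that encode integrins, tetraspanins and other adhesion molecules of T cells, with the adaptor proteins that bind integrin tails, taken by gene symbol from a table of RNA sequencing counts over 23366 symbols. All 34 were in the table, and 32 passed the filter on low counts that left 11716 genes for testing. The libraries came from CD4+GFP+ regulatory T (Treg) cells that flow cytometry had purified from liver (3 libraries) or spleen (3 libraries) of Foxp3GFP knock-in mice aged 12 days. Every group carried the knock-in, in which green fluorescent protein reports the Foxp3 gene, and no treatment was named. The labels give neither the number of animals behind a library nor their sex, so the p-values rest on the spread of these samples alone, and that spread may be partly technical. The study's title concerns Treg cells that accumulate in the neonatal liver, and the comparison asks which adhesion genes those cells express at other levels than splenic Treg cells do.

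Integrins are receptors of 1 alpha and 1 beta chain that hold a leukocyte to endothelium, to extracellular matrix or to other cells. They switch between a resting and a ligand-binding shape when talin and kindlin bind the tail of the beta chain. The beta chain sets the family: beta 2 pairs with alpha L to form LFA-1, beta 7 pairs with alpha 4 or alpha E, and beta 1 pairs with many alpha chains to form receptors for collagen, laminin, fibronectin and VCAM-1. Tetraspanins are membrane proteins with 4 membrane-spanning segments that gather integrins and other receptors into microdomains. In T cells LFA-1 and alpha 4 integrins serve arrest on vessel walls, and alpha E beta 7 (CD103) binds E-cadherin on epithelium.

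Library depth was between 8437055 and 10951720 counts in genes in liver; in spleen it was 1199410 for spleen 1 and 11408960 and 11358446 for the others. Levels are given as CPM, the counts per 1e6 counts of a library after scaling by TMM. Pearson's r of log2(CPM + 1), taken over genes and so not over replicates, was 0.984 to 0.987 for pairs of liver libraries. Spleen 2 and spleen 3 gave 0.990, and spleen 1 gave 0.962 with each of them. The shallow library thus stood apart, and a count of 3 there equals 2.58 CPM. Differences are log2 fold changes, liver minus spleen, ± SE over 3 libraries a tissue, and a mean CPM is given ± SD, liver first. Markers of the sorted cells were present in all 6 libraries: Foxp3 was at 1293, 1303 and 1197 CPM in liver and 1216, 1157 and 1101 CPM in spleen, with overlap (0.13 ± 0.09 on the log2 scale, adjusted p = 0.384 by edgeR). Cd4, Cd3e and Cd3d did not pass the test either. Of 3 further Treg markers, Il2ra was higher in spleen (-0.60 ± 0.09 on the log2 scale, adjusted p = 1.71e-04 by edgeR), and Ctla4 (0.89 ± 0.12 on the log2 scale, adjusted p = 5.00e-05 by edgeR) and Ikzf2 (0.35 ± 0.10 on the log2 scale, adjusted p = 0.0241 by edgeR) were higher in liver. Of the 11716 tested genes 1895, or 16.2%, passed the test at an adjusted p under 0.05 by edgeR's quasi-likelihood test, 9.28% higher in liver and 6.90% higher in spleen.

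Against that background, 13 of the 32 adhesion genes tested passed toward liver and 4 toward spleen, and 15 missed the threshold. For 19 of the 32 every library of one tissue lay above every library of the other, 14 toward liver and 5 toward spleen. Over all genes tested that share was 32.9%, with 17.7% toward liver and 15.2% toward spleen. Calls fell on 10 of 12 integrin chains, 3 of 4 tested counter-receptors, Selplg, Cd44 and Epcam. They fell on 1 of 7 tetraspanins, or 14.3%, and 0 of 5 tail adaptors. Beside 16.2% over all genes, neither of these small counts stands apart. The median log2 fold change of the tested members was 0.09, beside -0.01 for all genes tested. The members were chosen with results of these data known, and Itga1 and Cd63 passed the low-count filter only through the tissue where each was higher, so these counts describe the list and test nothing about it. Without the shallow library spleen 1 all 17 calls were made again, and Cd82 was added. With any other library left out 12 to 15 of the 17 were made again. The calls toward spleen fell from 4 to 1 without liver 2 or spleen 3. They fell to 2 without liver 1 or spleen 2 and to 3 without liver 3. Without spleen 2 or liver 3 that count includes Icam2, which was not among the 17.

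**Figure D1:**
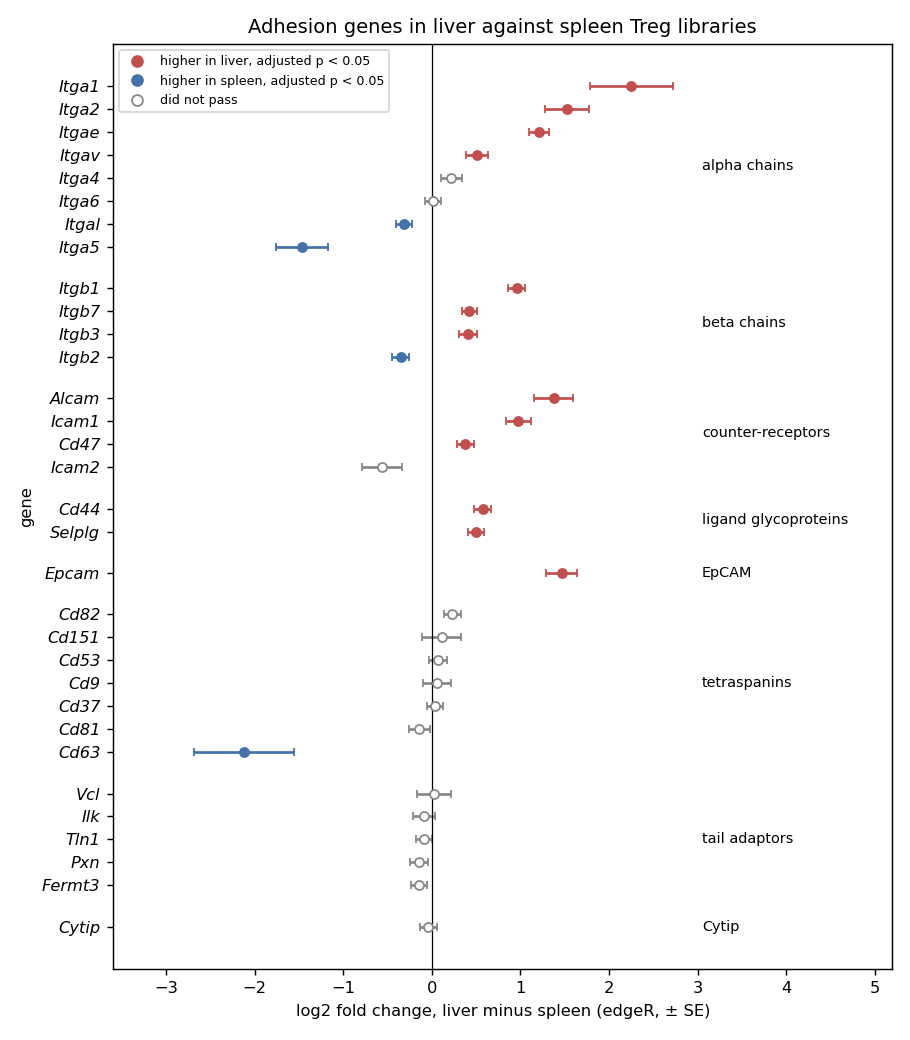
Log2 fold change of each tested adhesion gene, liver minus spleen (horizontal axis, edgeR, bars show ± SE, n = 3 libraries a tissue), grouped by role. Filled points passed an adjusted p of 0.05: 13 lie to the right, 4 to the left, and all 5 tail adaptors lie near 0 with open points.

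Promoter sequences are shown for the members with the smallest p in each direction for which a sequence was at hand: Itgb1, Epcam and Icam1, higher in liver, and Itga5, higher in spleen. They are the 250 bases before the annotated start, 5′ to 3′ on the gene's strand, from RefSeq on GRCm38.p6; counts were made on another build, mm9, and no coordinate was carried between them. Capitals mark matches, on either strand, to 6 motifs: TGTGGT (RUNX), GGGCGG (GC box), CCGGAA (ETS), TGANTCA (AP-1), GGTGTGA (T-box) and GGNNNTTCC (NF-kB).
Itgb1 (chr8:128685404-128685653, plus strand): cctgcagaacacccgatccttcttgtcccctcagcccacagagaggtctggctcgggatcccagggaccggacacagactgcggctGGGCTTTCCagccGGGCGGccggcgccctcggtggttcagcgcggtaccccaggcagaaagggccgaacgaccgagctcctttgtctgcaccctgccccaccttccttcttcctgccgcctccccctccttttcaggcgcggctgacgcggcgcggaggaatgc
Epcam (chr17:87635729-87635978, plus strand): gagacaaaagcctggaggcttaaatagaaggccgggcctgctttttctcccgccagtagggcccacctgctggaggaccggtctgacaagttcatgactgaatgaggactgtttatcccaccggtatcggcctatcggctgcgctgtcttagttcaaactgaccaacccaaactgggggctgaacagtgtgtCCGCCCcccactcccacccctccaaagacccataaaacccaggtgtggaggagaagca
Icam1 (chr9:21015690-21015939, plus strand): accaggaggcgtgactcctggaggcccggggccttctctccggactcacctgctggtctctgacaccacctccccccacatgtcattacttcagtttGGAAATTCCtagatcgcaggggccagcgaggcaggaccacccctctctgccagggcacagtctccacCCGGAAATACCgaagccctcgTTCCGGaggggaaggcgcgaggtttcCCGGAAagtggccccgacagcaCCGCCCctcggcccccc
Itga5 (chr15:103366792-103367041, minus strand): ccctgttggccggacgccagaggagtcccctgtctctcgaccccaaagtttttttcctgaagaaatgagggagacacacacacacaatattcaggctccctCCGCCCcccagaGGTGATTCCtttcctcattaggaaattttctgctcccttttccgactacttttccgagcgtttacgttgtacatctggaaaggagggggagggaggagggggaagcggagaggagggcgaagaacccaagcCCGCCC
The Icam1 window held 6 matches: GC box 1, ETS 3 and NF-kB 2, of which GGAAATTCC began 153 bases and GGAAATACC 84 bases before the start, the latter sharing bases with an ETS match. In Itgb1 the NF-kB match was GGGCTTTCC, 164 bases before the start, beside a GC box. Epcam had a GC box only, and Itga5 had a pair of GC boxes and the NF-kB match GGTGATTCC. Promoters matched 25 of the 34 members. Of the 10 matched members higher in liver, 5 held a GC box, 2 the ETS letters, 2 the NF-kB letters, 1 the T-box letters, 0 the RUNX letters and 0 the AP-1 letters. The shares over 27025 genes with a promoter were 35.4%, 13.6%, 17.6%, 3.84%, 15.9% and 7.82% in the same order. The RUNX letters stood in 6 of the 12 matched members that missed the threshold. A match to such short letters is a description of the window and shows no binding.

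Of the 4 beta chains, 3 were higher in liver and Itgb2 was higher in spleen. Itgb1, the shared chain of the collagen, laminin and fibronectin receptors, was at 577, 600.0 and 593 CPM in liver and 295, 286 and 329 CPM in spleen. Its liver libraries lay close together and all stood far above the spleen libraries, at 1.94-fold (0.96 ± 0.10 on the log2 scale, adjusted p = 1.65e-06 by edgeR). Itgb7, the partner of alpha 4 and alpha E, was at 1627, 1561 and 1737 CPM in liver and 1271, 1199 and 1204 CPM in spleen. Each liver library was again above each spleen library (0.42 ± 0.09 on the log2 scale, adjusted p = 0.0025 by edgeR). Itgb3, which pairs with alpha V in the vitronectin receptor and with alpha IIb on platelets, was at 151, 153 and 161 CPM in liver against 101, 118 and 124 CPM in spleen, again without overlap (0.41 ± 0.10 on the log2 scale, adjusted p = 0.00726 by edgeR). Itgb2, the beta chain of LFA-1 and of the myeloid integrins, was at 496, 482 and 572 CPM in liver and 686, 632 and 665 CPM in spleen. All spleen libraries were above all liver libraries, by 1.28-fold (-0.35 ± 0.10 on the log2 scale, adjusted p = 0.0173 by edgeR). The Itgb2 call was lost when liver 1, liver 2, spleen 2 or spleen 3 was left out, with edgeR adjusted p from 0.0522 to 0.127.

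Of the 8 alpha chains 4 were higher in liver, Itgal and Itga5 were higher in spleen, and Itga4 and Itga6 missed the threshold. Itgae, which encodes CD103, was at 162, 159 and 134 CPM in liver and 57.6, 66.5 and 68.0 CPM in spleen; the lowest liver library was well above the highest spleen library (2.31-fold, 1.21 ± 0.11 on the log2 scale, adjusted p = 7.52e-07 by edgeR). The collagen-binding chains were rarer. Itga2, which encodes the chain CD49b, was at 21.4, 24.6 and 19.9 CPM in liver and 4.30, 6.08 and 10.1 CPM in spleen. It was higher in liver (1.53 ± 0.25 on the log2 scale, adjusted p = 3.02e-04 by edgeR). Itga1, which encodes the chain CD49a, was at 6.85, 6.96 and 6.38 CPM in liver and 0, 2.14 and 0.939 CPM in spleen. Its counts were 57, 76 and 69 in liver and 0, 25 and 11 in spleen, so the liver libraries were alike, while spleen 1 had none at a depth where 3 counts are 2.58 CPM (2.25 ± 0.47 on the log2 scale, adjusted p = 0.0024 by edgeR). Itgav, which encodes the alpha V chain of RGD-binding integrins that activate TGF-beta, was at 141, 117 and 109 CPM in liver against 86.8, 75.3 and 95.3 CPM in spleen (0.51 ± 0.12 on the log2 scale, adjusted p = 0.00703 by edgeR). The tissues did not overlap, but that call was lost without liver 1 (edgeR adjusted p = 0.0539), without spleen 2 (edgeR adjusted p = 0.0799) and at equal depth, with all libraries thinned to the total of spleen 1 (edgeR adjusted p = 0.160).

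Itgal, the alpha chain of LFA-1, went with its partner Itgb2 to the spleen side. It was at 981, 936 and 904 CPM in liver and 1254, 1098 and 1152 CPM in spleen (1.24-fold, -0.31 ± 0.09 on the log2 scale, adjusted p = 0.0259 by edgeR). No libraries overlapped, but the call was lost when any library other than spleen 1 was left out (edgeR adjusted p = 0.0550 to 0.128) and at equal depth (edgeR adjusted p = 0.0774). Itga5, the alpha chain of the fibronectin receptor, was at 3.60, 4.76 and 5.64 CPM in liver and 15.5, 10.3 and 14.7 CPM in spleen. Its level was low everywhere, with each spleen library over each liver library (-1.47 ± 0.29 on the log2 scale, adjusted p = 0.0018 by edgeR). Itga4, the alpha chain of VLA-4 and of the gut-homing integrin alpha 4 beta 7, was at 1060.4, 902 and 768 CPM in liver against 879.5, 747 and 723 CPM in spleen, and its tissues overlapped (0.22 ± 0.12 on the log2 scale, adjusted p = 0.228 by edgeR). Itga6, a laminin receptor chain, was at 220.2, 244 and 225 CPM in liver against 236, 216 and 231 CPM in spleen, the flattest of the integrin chains (0.02 ± 0.09 on the log2 scale, adjusted p = 0.93 by edgeR).

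**Figure D2:**
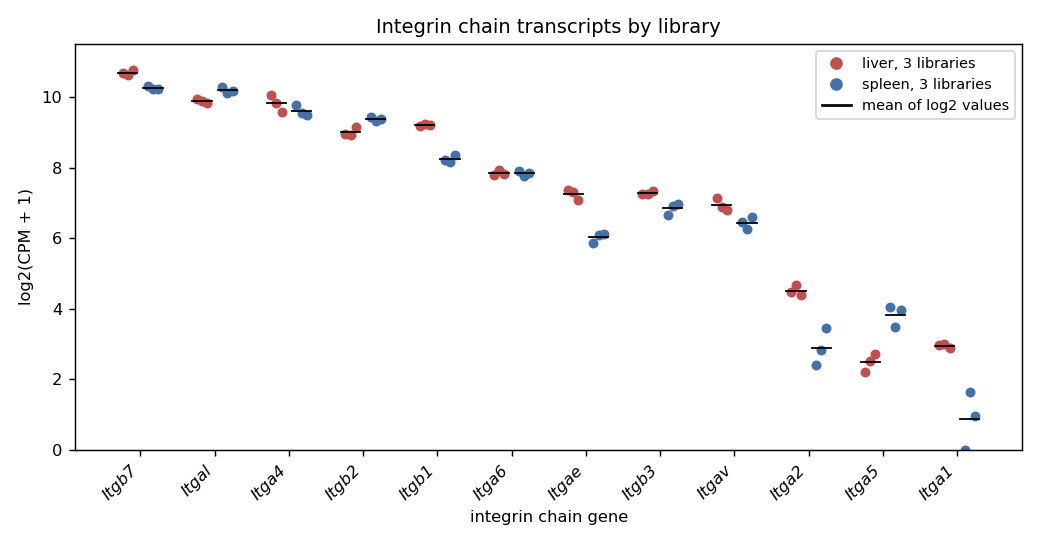
Level of the 12 integrin chain transcripts in each library, as log2(CPM + 1) on the vertical axis, with 1 point a library and black lines at the mean of each tissue. Itgb1, Itgae, Itga2 and Itga1 sit higher in every liver library, Itgal, Itgb2 and Itga5 higher in every spleen library, and Itga4 and Itga6 overlap.

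Markers of other cells that carry such integrins also differed between the tissues. NK cells and innate lymphoid cells are known for Itga1 and Itga2, and the summed level of 14 NK, innate lymphoid and CD8 T cell markers was 134 to 153 CPM in liver and 41.3 to 46.3 CPM in spleen. Of its 10 tested genes 5 passed toward liver and 1, Eomes, toward spleen, and 4 missed the threshold, Cd8a and Cd8b1 among them. For this and the other lists the genes given with a mean CPM are the 2 highest, or 1 of them, by the mean over all 6 libraries, which need not be the order within a tissue. Here they were Ccl5 (93.3 ± 12.1 against 13.7 ± 2.104 CPM) and Prf1 (14.3 ± 2.56 against 4.08 ± 1.30 CPM). Ccl5 made up most of the liver sum but not of the spleen sum. The list joins genes of several cell types, so its sum measures none of them alone. Defining genes of NK cells were low, but some were called higher in liver. Klrb1c counts were 29, 41 and 45 in liver and 0, 16 and 18 in spleen (adjusted p = 0.0475 by edgeR). Klrd1 counts were 19, 30 and 41 in liver and 0, 2 and 7 in spleen (adjusted p = 0.00467 by edgeR). Klrk1 missed the threshold. Ncr1, with counts of 7, 22 and 15 in liver and 0, 1 and 0 in spleen, was too low to test, as were Klra1, Klra7 and Klra8. Myeloid cells are rich in Itgb2, and macrophage and monocyte markers summed to 75.4 to 84.6 CPM in liver and 137 to 213 CPM in spleen, with 8 of 10 tested genes higher in spleen. Lyz2 was at 59.6 ± 3.78 against 93.8 ± 24.5 CPM and Cd68, which missed the threshold, at 10.4 ± 2.18 against 16.6 ± 7.39 CPM. C1qa, a resident macrophage gene, had counts of 1, 0 and 1 in liver and 6, 71 and 113 in spleen. Granulocyte markers summed to 289 to 323 CPM in liver and 486 to 828 CPM in spleen, with 10 of 13 higher in spleen and 1 higher in liver; Ngp was at 69.4 ± 5.18 against 174 ± 52.4 CPM and Ltf at 55.1 ± 2.46 against 117 ± 29.4 CPM. B cell markers summed to 149.6 to 179 CPM in liver and 232 to 331 CPM in spleen, 4 of 11 higher in spleen, with Cd79a at 38.9 ± 6.46 against 61.0 ± 12.6 CPM and Cd79b at 43.1 ± 2.97 against 56.7 ± 11.9 CPM. Erythroid markers summed to 99.0 to 125 CPM in liver and 328 to 414 CPM in spleen, with 9 of 10 higher in spleen. Tfrc, which T cells also express, was at 99.1 ± 16.0 against 114 ± 6.21 CPM and Beta-s at 5.97 ± 1.39 against 89.5 ± 35.1 CPM. Tfrc missed the threshold and made up most of the liver sum, at 112, 104 and 81.4 CPM in the liver libraries. The part of these cells in the integrin differences was not tested. In such bulk samples more cells of a type and more RNA per cell cannot be told apart.

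**Figure D3:**
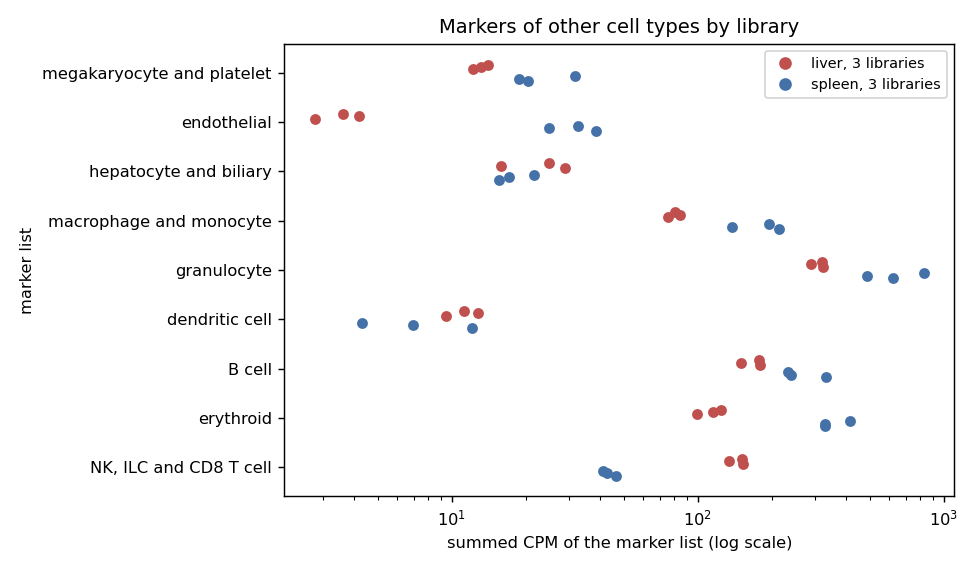
Summed CPM of 9 marker lists in each library (horizontal log axis), with liver libraries in red and spleen libraries in blue. The NK, innate lymphoid and CD8 T cell list lies higher in liver, and the endothelial, macrophage, granulocyte, B cell, megakaryocyte and erythroid lists lie higher in spleen.

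Ratios of gene pairs within a library do not depend on how libraries are scaled to each other. The log2 ratio of Itgb1 to Itgb2 counts was 0.22, 0.32 and 0.05 in liver and -1.22, -1.14 and -1.01 in spleen. All liver libraries held more Itgb1 than Itgb2 counts and all spleen libraries fewer, a 2.50-fold shift (difference 1.32; exact permutation test over libraries, two-sided, p = 0.1, the smallest that 3 against 3 can give). Counts also depend on gene length: per kb of exon Itgb1 was below Itgb2 in both tissues, at 0.891 of it in liver and 0.357 in spleen. The log2 ratio of Itgb1 to Itgb7 was -1.50, -1.38 and -1.55 in liver and -2.11, -2.07 and -1.87 in spleen, without overlap (difference 0.54, exact permutation p = 0.1). The log2 ratio of Itgae to Itgb7 was -3.33, -3.30 and -3.70 in liver and -4.45, -4.17 and -4.14 in spleen, so Itgae transcripts were more frequent per Itgb7 transcript in every liver library (difference 0.82, exact permutation p = 0.1). The LFA-1 pair overlapped between the tissues: the log2 ratio of Itgal to Itgb2 was 0.98, 0.96 and 0.66 in liver and 0.87, 0.80 and 0.79 in spleen (difference 0.05, exact permutation p = 0.8).

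For 4 known partners of beta 1 the ratio to Itgb1 was compared, and it was lower in liver for each. These ratios share Itgb1 as denominator, so each also carries the difference of Itgb1 itself, 0.96 ± 0.10. Other partners of beta 1 were not among the pairs. Of these the collagen-binding chains Itga1 and Itga2 had larger differences, 2.25 ± 0.47 and 1.53 ± 0.25. Itga7 was at 0.92 ± 0.16, Itga3 at 0.49 ± 0.22, Itga10 at -0.82 ± 0.45 and Itga9 at -1.49 ± 0.26. Itga3 and Itga10 were named after their values were seen, and contrasts of these chains with Itgb1 were not tested. The log2 ratio to Itgb1 differed between liver and spleen by -0.75 for Itga4, -0.45 for Itgav, -0.95 for Itga6 and -2.49 for Itga5, each without overlap of the libraries (exact permutation p = 0.1 for each). For Itga6 the ratios were -1.39, -1.30 and -1.40 in liver and -0.32, -0.41 and -0.51 in spleen. The log2 ratio of Itga4 to Itgb7, -0.62, -0.79 and -1.18 in liver and -0.53, -0.68 and -0.74 in spleen, overlapped (difference -0.21, exact permutation p = 0.4). In all 11 pairs were compared; adjusted over them by the Benjamini-Hochberg method, the smallest p was 0.157, so no ratio could pass in a design of this size.

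**Figure D4:**
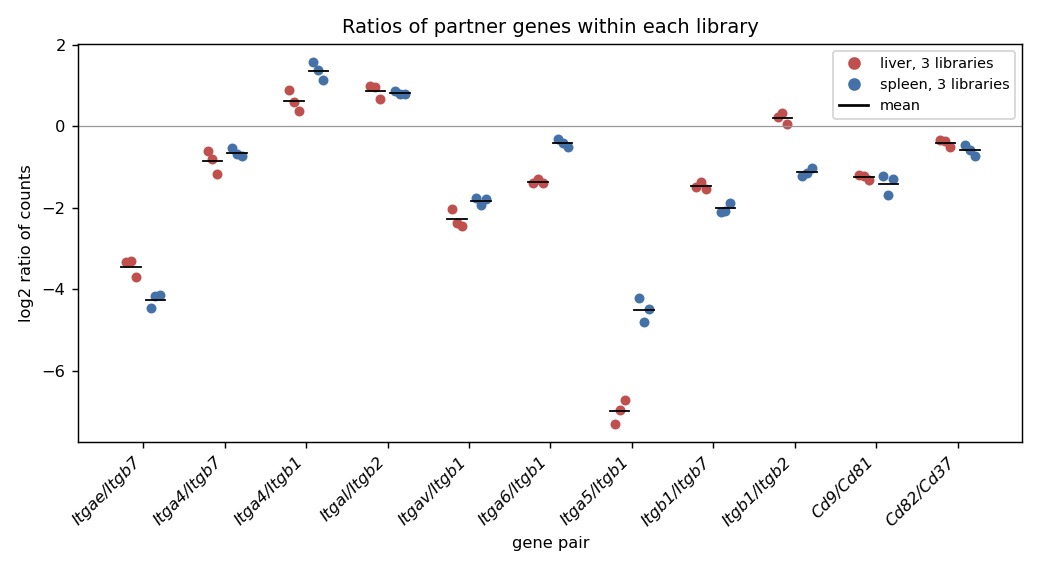
Log2 ratio of the counts of 2 genes within each library (vertical axis) for the 11 pairs compared, with 1 point a library and black lines at the mean of each tissue. Itgb1/Itgb2 lies above 0 in the liver libraries and below 0 in the spleen libraries, while Itgal/Itgb2 overlaps. Counts are not corrected for gene length, so the position of 0 does not rank the 2 genes.

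Levels can be compared between genes only per length, here as CPM per kb of exon from the GRCm38 annotation of GENCODE. In spleen the order of the beta chains was Itgb7 at 456 ± 14.9, Itgb2 at 223 ± 9.15, Itgb1 at 79.5 ± 5.96 and Itgb3 at 19.8 ± 2.14 CPM per kb. In liver it was Itgb7 at 612 ± 33.2, Itgb2 at 174 ± 16.3, Itgb1 at 155 ± 3.13 and Itgb3 at 26.8 ± 0.932 CPM per kb. Per kb, Itgb1 was 0.891 of Itgb2 in liver and 0.357 in spleen. As a share of the summed CPM per kb of the 4 genes, Itgb1 was 16.0% ± 0.886 in liver and 10.2% ± 0.737 in spleen, Itgb2 was 18.0% ± 0.741 in liver and 28.6% ± 0.370 in spleen and Itgb7 was 63.3% ± 0.539 in liver and 58.6% ± 0.992 in spleen (SD, n = 3 libraries each). The Itgb3 share overlapped. Among the 8 alpha chains Itgal held the largest share, at 41.6% ± 1.52 in liver and 52.5% ± 0.286 in spleen, followed by Itga4 with 26.2% ± 2.30 in liver and 23.0% ± 1.34 in spleen. Itgae held 11.1% ± 0.463 in liver and 4.81% ± 0.681 in spleen, and Itga1, Itga2 and Itga5 each held under 1.5%.

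**Figure D5:**
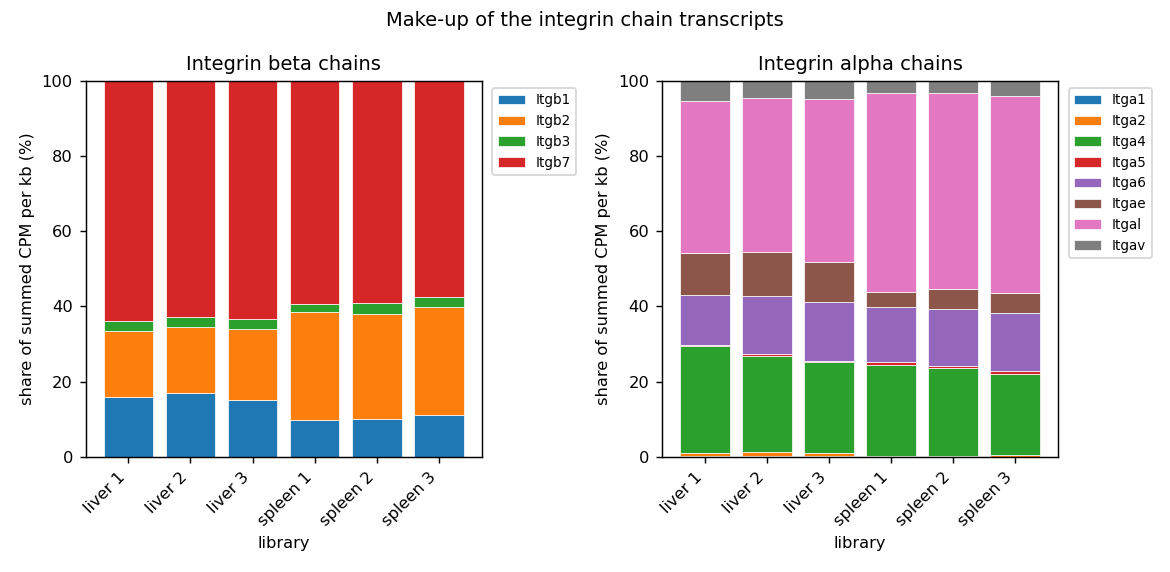
Make-up of the integrin chain transcripts in each library, as a share of the summed CPM per kb of the 4 beta chains (left) and the 8 alpha chains (right). The Itgb2 and Itgal segments are larger in the spleen libraries, and the Itgb1 and Itgae segments larger in the liver libraries.

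Counter-receptors and other ligands were higher in liver where they passed. Icam1, the inducible ligand of LFA-1, was at 118, 113 and 141 CPM in liver and 43.0, 65.0 and 70.2 CPM in spleen, and the lowest liver library exceeded the highest spleen library (1.97-fold, 0.98 ± 0.14 on the log2 scale, adjusted p = 6.48e-05 by edgeR). Icam2, another LFA-1 ligand, was at 22.1, 27.2 and 39.9 CPM in liver against 67.9, 34.6 and 41.7 CPM in spleen. Its highest value was in spleen 1, the tissues overlapped, and it missed the threshold (-0.56 ± 0.23 on the log2 scale, adjusted p = 0.112 by edgeR). By limma-voom, by edgeR with no filter or at equal depth, and by edgeR without liver 3 or spleen 2 it was called higher in spleen (adjusted p = 0.0113 to 0.0457). Alcam, the CD166 ligand of CD6, was at 26.5, 33.1 and 24.3 CPM in liver and 11.2, 8.22 and 13.2 CPM in spleen, without overlap (1.38 ± 0.22 on the log2 scale, adjusted p = 2.73e-04 by edgeR). Cd47, which signals to SIRP-alpha on phagocytes, was at 198, 182 and 169 CPM in liver against 155, 136 and 136 CPM in spleen (0.38 ± 0.10 on the log2 scale, adjusted p = 0.0119 by edgeR). The tissues did not overlap, but the call was lost without liver 1, spleen 2 or spleen 3 and at equal depth (edgeR adjusted p = 0.0622 to 0.0959). Esam and F11r, junctional adhesion molecules of endothelium and epithelium, were too low to test. Esam counts were 4, 2 and 0 in liver and 0, 23 and 3 in spleen, and F11r counts were 4, 2 and 5 in liver and 0, 5 and 4 in spleen.

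Both glycoproteins that leukocytes roll or crawl on were higher in liver. Selplg, which encodes the P-selectin ligand PSGL-1, was at 755, 809 and 888 CPM in liver and 604, 569.6 and 566 CPM in spleen (1.41-fold, 0.50 ± 0.09 on the log2 scale, adjusted p = 0.00118 by edgeR). Cd44, the hyaluronan receptor, was at 140.4, 134 and 148 CPM in liver and 86.8, 95.9 and 97.4 CPM in spleen (1.49-fold, 0.57 ± 0.10 on the log2 scale, adjusted p = 4.61e-04 by edgeR). For both genes the tissues did not overlap, and every one of the 15 alternative fits called them. Epcam, a homophilic adhesion molecule of epithelium that T cells can also express, was at 41.0, 43.2 and 53.2 CPM in liver and 18.1, 14.3 and 18.4 CPM in spleen. Every liver library was far above every spleen library (2.76-fold, 1.46 ± 0.18 on the log2 scale, adjusted p = 1.29e-05 by edgeR). Biliary epithelium is known for Epcam and for keratins. Counts of Krt7, Krt8 and Sox9 were 0 in all libraries, Krt19 had counts of 0, 0 and 1 in liver and 0, 0 and 0 in spleen, and Krt18 had counts of 17, 23 and 38 in liver and 1, 9 and 3 in spleen (2.22 ± 0.65 on the log2 scale, adjusted p = 0.0243 by edgeR). The list of 13 hepatocyte and biliary markers summed to 15.8 to 29.0 CPM in liver and 15.6 to 21.5 CPM in spleen. Trf made up most of the spleen sum, at 20.6, 16.1 and 14.7 CPM in the spleen libraries. The overlap of the sums therefore does not show equal levels of the other genes. Of the 4 tested genes of that list Alb, Ahsg and Krt18 were higher in liver. Alb counts were 50, 24 and 79 in liver and 0, 0 and 0 in spleen. Ahsg counts were 31, 13 and 48 in liver and 0, 0 and 0 in spleen. Trf, at 9.96 ± 0.868 against 17.1 ± 3.11 CPM, was higher in spleen. The part of hepatocytes and biliary cells in the Epcam difference was not tested.

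Of the 7 tetraspanins 6 missed the threshold, and Cd63 was higher in spleen, a called share of 14.3% beside 16.2% over all genes. Cd53, a tetraspanin of leukocytes, was at 308, 331 and 348 CPM in liver against 352, 288 and 308 CPM in spleen, with overlap (0.07 ± 0.10 on the log2 scale, adjusted p = 0.69 by edgeR). Cd37, another of that kind, was at 396, 383 and 449 CPM in liver against 396, 393 and 408 CPM in spleen, also with overlap (0.04 ± 0.10 on the log2 scale, adjusted p = 0.856 by edgeR). Cd82 was at 314, 299.7 and 315 CPM in liver against 289.7, 262 and 245 CPM in spleen. Its tissues did not overlap, yet it missed the threshold (0.23 ± 0.09 on the log2 scale, adjusted p = 0.107 by edgeR), and it passed without spleen 1 and with limma-voom. Cd81, which takes part in T cell costimulation, was at 64.7, 71.1 and 72.1 CPM in liver against 68.8, 83.7 and 73.5 CPM in spleen, with overlap (-0.14 ± 0.12 on the log2 scale, adjusted p = 0.472 by edgeR). Cd9 was at 28.2, 30.3 and 29.0 CPM in liver against 29.2, 25.9 and 29.7 CPM in spleen (0.06 ± 0.16 on the log2 scale, adjusted p = 0.864 by edgeR). Cd151, a partner of laminin-binding integrins, was at 13.2, 16.0 and 14.5 CPM in liver against 10.3, 15.7 and 12.5 CPM in spleen (0.11 ± 0.22 on the log2 scale, adjusted p = 0.792 by edgeR). Both overlapped. The exception was Cd63, a tetraspanin of lysosomes and secretory granules, with counts of 8, 5 and 6 in liver and 2, 34 and 37 in spleen. Its libraries did not overlap, but levels were under 3.5 CPM in all 6 libraries (-2.12 ± 0.57 on the log2 scale, adjusted p = 0.0152 by edgeR), and the call was lost without liver 2, liver 3, spleen 2 or spleen 3 (edgeR adjusted p = 0.0724 to 0.1003). Macrophages and endothelium are rich in Cd63; endothelial markers summed to 2.78 to 4.21 CPM in liver and 24.8 to 38.6 CPM in spleen, with 3 of 5 tested genes higher in spleen. Stab2 was at 0.403 ± 0.379 against 10.8 ± 5.09 CPM and Eng at 0.824 ± 0.339 against 7.34 ± 1.18 CPM, and the part of these cells in the Cd63 difference was not tested. Flt1, Emcn, Robo4 and Lyve1 were at 0 in all liver libraries. Platelets are rich in Cd9 and Itgb3. Megakaryocyte and platelet markers summed to 12.2 to 14.1 CPM in liver and 18.7 to 31.8 CPM in spleen, with Itga2b at 4.82 ± 1.04 against 7.11 ± 0.582 CPM and Gp1ba at 3.32 ± 1.68 against 6.11 ± 1.02 CPM, and Pf4 counts were 1, 0 and 1 in liver and 1, 0 and 0 in spleen. No tested gene of that list passed edgeR (0 of 4; 0 at an unadjusted p under 0.05, 0 by DESeq2 and 0 by limma-voom).

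None of the 5 adaptors of the integrin tail passed the test, and with 16.2% called over all genes, 0 of so few does not stand apart. Tln1, talin, which pulls the beta tail into the active shape, was at 1785, 1625 and 1638 CPM in liver and 1814, 1802 and 1755 CPM in spleen, with overlap (-0.09 ± 0.09 on the log2 scale, adjusted p = 0.547 by edgeR). Fermt3, kindlin-3, the co-activator of blood cells, was at 495, 496 and 529 CPM in liver and 600.1, 544 and 546 CPM in spleen. The spleen libraries were all above the liver libraries, but by a margin that missed the threshold (-0.15 ± 0.09 on the log2 scale, adjusted p = 0.319 by edgeR). Pxn, paxillin, was at 162, 149 and 135 CPM in liver against 184, 158 and 158 CPM in spleen (-0.14 ± 0.10 on the log2 scale, adjusted p = 0.391 by edgeR). Ilk, which joins kindlin to actin, was at 94.4, 102 and 98.8 CPM in liver against 133, 102 and 90.9 CPM in spleen (-0.09 ± 0.12 on the log2 scale, adjusted p = 0.69 by edgeR). Vcl, vinculin, was at 24.1, 22.2 and 17.2 CPM in liver against 17.2, 21.2 and 21.7 CPM in spleen (0.03 ± 0.19 on the log2 scale, adjusted p = 0.949 by edgeR). Of these 5 genes 0 passed edgeR, 0 had an unadjusted p under 0.05, and 0 passed DESeq2 or limma-voom; the directions of Vcl and Ilk changed between settings. Cytip, which holds cytohesin-1 away from LFA-1 in activated lymphocytes, was at 685, 657 and 598 CPM in liver against 708, 670.5 and 624 CPM in spleen, with overlap (-0.04 ± 0.10 on the log2 scale, adjusted p = 0.824 by edgeR). Ilk shares 1533 exon bases with Taf10 on the other strand, and Vcl 2090 with Ap3m1; without a stated strand setting, reads from these overlaps cannot be assigned with certainty, and the same holds for 511 bases that Icam1 shares with Gm47079. Itga1 shares 451 exon bases with Gm49395 on the same strand, which no strand setting would resolve.

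Per length, adaptors and tetraspanins spanned a wide range of levels. In liver Fermt3 was at 196 ± 7.42 and Tln1 at 200.5 ± 10.6 CPM per kb, a pair that did not differ beyond its spread. Below them lay Ilk, at 52.5 ± 2.07, Pxn, at 31.2 ± 2.84, and Vcl, at 4.02 ± 0.678 CPM per kb. Among tetraspanins the liver order was Cd53 at 189 ± 11.6, Cd82 at 160.3 ± 4.48, Cd37 at 117 ± 9.98, Cd81 at 45.2 ± 2.60, Cd9 at 23.8 ± 0.866, Cd151 at 7.52 ± 0.727 and Cd63 at 0.454 ± 0.184 CPM per kb. Spleen had the same order, with Cd53 at 181 ± 18.6 and Cd63 at 1.79 ± 0.530 CPM per kb. The log2 count ratios of Cd9 to Cd81 were -1.20, -1.23 and -1.31 in liver and -1.22, -1.69 and -1.31 in spleen and overlapped (exact permutation p = 0.5). Cd82 to Cd37 gave -0.33, -0.35 and -0.51 in liver and -0.45, -0.59 and -0.73 in spleen (exact permutation p = 0.2).

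Other genes of the same families came from lists drawn up beside the members. Of 14 further integrin chains 11 were tested. Of these 3 passed toward liver and 1 toward spleen, 36.4% in all, beside 16.2% over all genes. Itga7, a laminin-binding chain, was at 81.4 ± 17.4 against 40.9 ± 7.95 CPM (0.92 ± 0.16 on the log2 scale, adjusted p = 5.39e-04 by edgeR). Itgam, the CD11b chain, was at 43.1 ± 2.39 against 29.7 ± 4.44 CPM (0.58 ± 0.16 on the log2 scale, adjusted p = 0.0143 by edgeR). Itgad, the CD11d chain, named after its values were seen, was at 13.4 ± 2.16 against 6.45 ± 1.99 CPM (1.03 ± 0.28 on the log2 scale, adjusted p = 0.0178 by edgeR). Itga9, a chain of a VCAM-1 and tenascin receptor, was higher in spleen, with 5.95 ± 0.493 against 17.9 ± 4.69 CPM (-1.49 ± 0.26 on the log2 scale, adjusted p = 4.97e-04 by edgeR). Itgam and Itgad pair with Itgb2, which was higher in spleen. Dendritic cell markers, among them Itgax, summed to 9.44 to 12.8 CPM in liver and 4.30 to 12.1 CPM in spleen; Itgax was at 4.36 ± 1.38 against 2.68 ± 1.19 CPM and Siglech at 2.02 ± 0.231 against 0.828 ± 0.299 CPM. Of 22 further tetraspanins 12 were tested and 3, or 25%, passed. Beside 16.2% over all genes, so small a count does not stand apart. Tspan2 was higher in liver, at 12.5 ± 2.74 against 4.39 ± 3.15 CPM (1.19 ± 0.33 on the log2 scale, adjusted p = 0.0175 by edgeR). Tspan17 was too, at 9.60 ± 2.81 against 4.31 ± 0.476 CPM (1.15 ± 0.33 on the log2 scale, adjusted p = 0.0208 by edgeR). Tspan9 was higher in spleen, at 2.98 ± 1.46 against 7.82 ± 1.37 CPM (-1.43 ± 0.39 on the log2 scale, adjusted p = 0.0174 by edgeR).

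Of 32 further adaptors and adhesion kinases 26 were tested. Of these 2 passed toward liver and 5 toward spleen, 26.9% in all, beside 16.2% over all genes. Lpxn, leupaxin, was higher in liver, at 66.9 ± 1.08 against 50.5 ± 3.19 CPM (0.43 ± 0.12 on the log2 scale, adjusted p = 0.021 by edgeR). On the spleen side, Evl, an actin regulator of the Ena/VASP family, was at 170.5 ± 4.67 against 281 ± 4.90 CPM (-0.72 ± 0.09 on the log2 scale, adjusted p = 1.46e-05 by edgeR). Tns1, tensin-1, was at 40.6 ± 1.64 against 71.8 ± 6.46 CPM (-0.84 ± 0.13 on the log2 scale, adjusted p = 1.37e-04 by edgeR). Actn1, Ptk2 and Tns3, named after their values were seen, were the other 3, with log2 fold changes of -0.59 ± 0.12, -1.15 ± 0.33 and -2.22 ± 0.46.

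Of 35 other leukocyte adhesion receptors and ligands 34 were in the table and 29 tested. Of these 3 passed toward liver and 6 toward spleen, 31% in all, beside 16.2% over all genes. Spn, the sialomucin CD43, was at 699.6 ± 60.1 against 515 ± 28.3 CPM (0.44 ± 0.10 on the log2 scale, adjusted p = 0.00391 by edgeR). Emb, embigin, was at 176 ± 12.5 against 131 ± 13.4 CPM (0.46 ± 0.10 on the log2 scale, adjusted p = 0.00397 by edgeR). Thbs1, the CD47 ligand thrombospondin-1, named after its values were seen, was higher too (0.92 ± 0.25 on the log2 scale, adjusted p = 0.0184 by edgeR). Cd96, a receptor for nectin-type ligands, was at 76.3 ± 3.77 against 139 ± 20.2 CPM (-0.83 ± 0.11 on the log2 scale, adjusted p = 4.41e-05 by edgeR). Vcam1, the ligand of alpha 4 beta 1, had counts of 1, 0 and 1 in liver and 15, 161 and 255 in spleen (edgeR adjusted p = 5.08e-08); it is also a gene of the macrophage list given above. In the selectin ligand glycosylation list 11 of 13 genes were tested. There were 3 calls toward liver and 1 toward spleen, 36.4% in all, beside 16.2% over all genes. Chst2, a sulfotransferase, was at 59.2 ± 6.79 against 34.8 ± 1.47 CPM (0.78 ± 0.14 on the log2 scale, adjusted p = 6.99e-04 by edgeR). Tpst2, which sulfates PSGL-1 tyrosines, was at 157 ± 7.13 against 114 ± 6.77 CPM (0.46 ± 0.09 on the log2 scale, adjusted p = 0.00236 by edgeR). Gcnt1, the core-2 branching enzyme, named after its values were seen, had counts of 98, 103 and 165 in liver and 0, 55 and 88 in spleen (1.18 ± 0.38 on the log2 scale, adjusted p = 0.0406 by edgeR). St3gal1, a sialyltransferase that caps core-1 glycans, was higher in spleen, with 146 ± 7.03 against 225 ± 3.68 CPM (-0.63 ± 0.09 on the log2 scale, adjusted p = 7.67e-05 by edgeR). Of 6 cytohesin and Arf genes 0 passed edgeR, where 3 had an unadjusted p under 0.05, and 0 passed DESeq2 or limma-voom. A count of 0 in so few genes does not stand apart from the 16.2% over all genes.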

How the data were processed

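The authors deposited whole-number read counts for each gene symbol, not normalized. The submitters' processing notes name HISAT2 2.1, HTSeq 0.11 and build mm9; no annotation, strand setting or filter is named. The 5 rows that name no gene, 25.5% to 29.0% of a library's counts, were left out. Counts were fitted in R 4.3.3 with edgeR 4.0.16 over the whole table (filterByExpr, TMM, quasi-likelihood F test, Benjamini-Hochberg adjustment over 11716 genes, threshold 0.05). CPM is relative to the TMM-scaled total; SEs are implied by the F statistic. All 15 pairs of libraries differed beyond sampling noise (chi-square over its degrees of freedom 4.56 or more). Members and lists were chosen with earlier results of these data known. Named are all 34 members, Foxp3, the 2 smallest p per direction of each related list and the 2 most abundant genes per marker list; others were chosen after their values were seen. A gene that this rule names in the list of further adaptors is not reported here. Alternatives used DESeq2 1.42.0, limma 3.58.1, other scalings and filters, thinning of all libraries to 1199410 counts, and each library left out. Ratios used a pseudocount of 0.5 counts. The fits were tested on simulated data. Floors cover counting error only.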

Additional observations from a re-analysis of the deposited data

How the results depend on the processing

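Under all 15 alternatives run, the calls for Itga2, Itga5, Itgae, Itgb1, Itgb3, Itgb7, Icam1, Selplg, Cd44, Epcam and Alcam were made again, as were those for Itga1 in the 14 that tested it. Itgal, Itgb2, Itgav, Cd47 and Cd63 lost theirs in the fits named with their values. Cd63 was tested in only 13 alternatives, as it failed the filter of 5 CPM in at least 3 libraries and the filter at equal depth. With 1 library left out, 11 to 14 members were higher in liver and 1 to 4 higher in spleen (1 without liver 2 or spleen 3, 2 without liver 1 or spleen 2); over all genes the counts were 722 to 1245 and 486 to 989, both lowest without spleen 2. At equal depth the counts over all genes were 621 and 404 of 9240, and limma-voom called 1243 genes higher in spleen; upper-quartile scaling gave 954 higher in liver and 1014 higher in spleen, so 48.5% of calls were higher in liver instead of 57.4%. The median of the tested members ranged from 0.048 to 0.16. Uncalled log2 fold changes near 0 changed sign. With upper-quartile scaling Itga6 was -0.027, Cd37 -0.0083 and Vcl -0.020; with limma-voom Cd37 was -0.0016; at equal depth Cd37 was -0.0097 and Vcl -0.20. With 1 library left out the ranges were -0.069 to 0.15 for Vcl, -0.023 to 0.048 for Itga6, -0.038 to 0.085 for Cd37, -0.091 to 0.010 for Cytip, -0.21 to 0.030 for Ilk and -0.016 to 0.11 for Cd9. The difference of the Itgal to Itgb2 ratio ranged from -0.011 to 0.15. The cause was not tested, other than that equal depth leaves fewer genes and counts. Spleen 1 limits low genes: 3 counts are 2.58 CPM there. No paired analysis was possible because the labels pair no libraries.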
